A study of Mus musculus with 38 samples.

Results

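Spleens of unirradiated old mice (group O) were compared with spleens of unirradiated adolescent mice (group A), in RNA taken from 9 animals of each age. These 18 arrays are part of a series of 38. Of the others, 20 are spleens of mice of the same ages that had received 3 fractions of 0.5 Gy of protons (AP, adolescent, 10 arrays; OP, old, 10 arrays). All mice were male C57BL/6 and all carried LLC tumors, a transplanted mouse Lewis lung carcinoma, so neither group holds tumor-free animals. Adolescent mice were 68 days old and came from the Jackson Laboratory, old mice were 736 days old and came from the National Institute of Aging, and supplier and age therefore cannot be told apart. Spleens were collected when the tumor had reached a set volume. The paper reports slower tumor growth in old than in adolescent unirradiated mice. The time each mouse had carried its tumor may therefore also differ with age, and it was not analysed here. RNA was measured on Illumina bead arrays with 1 array per spleen, and the 18 arrays were chosen by the age and dose in their column names, not by any measured value.

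The spleen filters blood and is also the largest secondary lymphoid organ, with B and T cells in its white pulp and macrophages, plasma cells and erythroblasts in its red pulp. In mice it makes red cells throughout life and makes more of them, and more granulocytes, when a tumor grows. With age, naive lymphocytes are replaced by memory and exhausted T cells and by age-associated B cells, and antibody-secreting cells accumulate. In whole-organ RNA, fewer cells of a type and less RNA per cell cannot be told apart.

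The spleen label was checked against marker genes, and 13 of 15 B cell markers, 11 of 13 T cell markers, 17 of 17 macrophage markers and 27 of 28 erythroid markers that were tested were above background on all 18 arrays. Between 37.9% and 49.4% of probes were above background on an A array and between 38.3% and 51.2% on an O array. Arrays differed in the brightness of their strongest spots, and 7 dim and 2 bright arrays stood in each of the A and O groups, whereas all AP and OP arrays were bright. Markers of the exocrine pancreas, an organ that touches the spleen, stood apart on A array 3, where the 8 tested genes averaged 11.27 on the log2 scale, and on O array 6, where they averaged 7.45. On the other 16 arrays this average lay between 5.46 and 5.77. Leaving out both arrays gave 402 genes higher and 106 lower in old spleens, against 453 and 127 with all arrays.

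Of 17145 genes tested, 580 differed between old and adolescent spleens at an adjusted p under 0.05 (limma, Benjamini-Hochberg), which is 3.38%. In old spleens 453 genes were higher (2.64% of those tested) and 127 were lower (0.741%). Among the genes higher in old spleens 108 differed at least 2-fold and 20 at least 4-fold, and among the lower genes 6 differed at least 2-fold and 0 at least 4-fold. Over all genes tested the median log2 difference, old minus adolescent, was -0.01. With array medians aligned in place of quantile normalization, 205 genes were higher and 8 lower, and the median over all genes was then 0.05. Of the 80 genes called among those named by rule, 35 did not pass with that scaling. For 53 genes (0.309%) the signals of the groups did not overlap, with every O array above every A array for 46 (0.268%) and below for 7 (0.0408%). O array 7 gave the highest old value for 30.7% of the 453 higher genes, and without it 339 genes were higher and 78 lower.

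**Figure D1:**
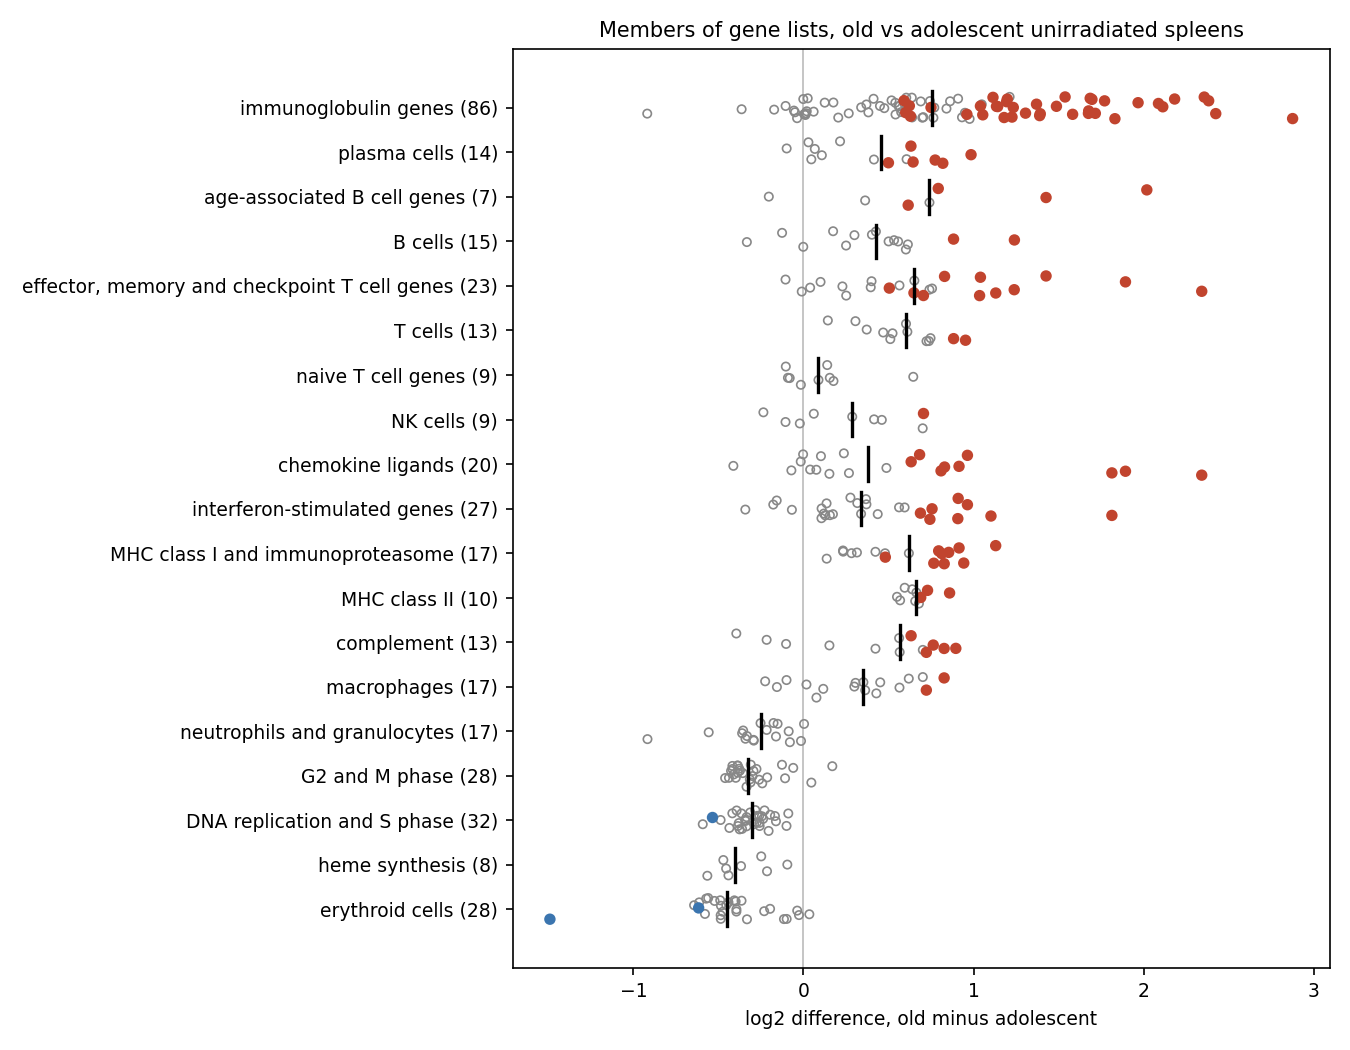
Log2 difference between old and adolescent spleens for each tested member of 19 gene lists, with the number tested in parentheses. Filled points passed the test (red, higher in old; blue, lower in old), open points did not, and black bars are list medians. Immunoglobulin, T cell effector, chemokine and MHC lists lie mostly to the right of 0, whereas proliferation and erythroid lists lie mostly to the left with few members past the test.

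Immunoglobulin genes were among the genes with the largest differences. The list holds 86 tested genes, of which 57 carry an immunoglobulin symbol in the array's annotation, 27 carry a LOC number that RefSeq names as an immunoglobulin gene, and 2 carry an older symbol of one (Gm1077 and Gm459). In old spleens 38 of the 86 rose, 0 fell, and the median log2 difference was 0.76. Of 31 heavy chain variable genes 17 rose (median 0.96), and of 44 kappa variable genes 16 rose (median 0.64). Variable genes of the same family are similar, and their probes may catch each other's RNA, so a single variable gene may not be told from its close relatives. Probe sequences were not examined.

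The probe annotated Ighg, the constant region of IgG heavy chains, ranged from 9.08 to 11.66 with a median of 10.04 (log2 signal) on A arrays and from 11.30 to 13.49 with a median of 12.49 on O arrays. Its level was 5.12-fold higher in old spleens (log2 difference 2.36 ± 0.29 SE, adjusted p = 1.53e-06), with 7 of 9 O arrays above the highest A array, and a second Ighg probe differed by 0.97. Igh-6, the constant region of IgM, was bright everywhere, from 13.04 to 14.45 with a median of 13.97 in A and from 14.53 to 14.82 with a median of 14.62 in O. Groups did not overlap for Igh-6 and the log2 difference was 0.75 ± 0.13 (adjusted p = 0.000373), although its old values sit near the top of the measurable range. For the IgA constant region, the probe annotated IGHA rose by 0.59 (adjusted p = 0.0375), and the one that RefSeq names Igha differed by 0.69 without passing the test (adjusted p = 0.214). Ighd, the IgD constant region of naive B cells, differed by 0.20 (adjusted p = 0.767). The light chain constant regions Igk-C and IGLC2 differed by 0.38 and 0.59 and did not pass the test (adjusted p = 0.0649 and 0.0797).

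Among the variable genes, LOC636752, which RefSeq names Igkv4-62, lay between 7.33 and 10.37 with a median of 9.06 in A and between 10.39 and 12.62 with a median of 11.66 in O. Every O array lay above every A array, and the level was 7.34-fold higher (log2 difference 2.88 ± 0.53, adjusted p = 0.000918). LOC641178, which RefSeq names Ighv5-9-1, went from 5.00 to 6.50 with a median of 5.45 in A and from 5.39 to 10.75 with a median of 7.53 in O. Here the old spleens were spread widely, with 5 of 9 above the highest A array, and the log2 difference was 2.11 ± 0.46 (adjusted p = 0.00423). LOC641178 was above background on 5 of 9 A and 8 of 9 O arrays, so its size rests partly on values near background. The median SD over kappa variable genes was 0.82 in O and 0.51 in A, and over all genes tested it was 0.31 in O and 0.29 in A. Of the 15 largest increases, 6 were immunoglobulin genes and 7 were LOC models that the RefSeq table does not list. The top one, LOC384415, was between 7.43 and 10.39 with a median of 8.94 in A and between 10.86 and 14.88 with a median of 13.38 in O, a 19.6-fold difference (adjusted p = 2.43e-08) with no overlap.

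**Figure D2:**
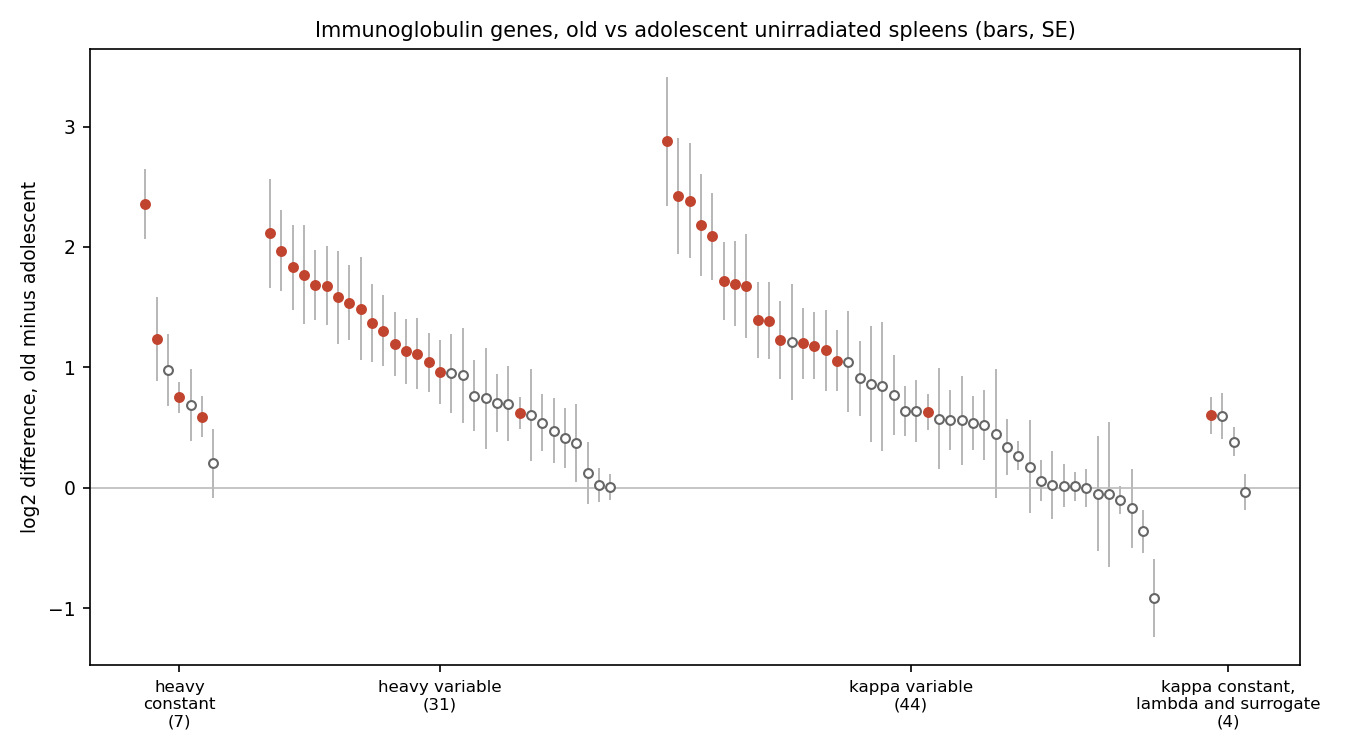
Log2 difference, old minus adolescent, of each of the 86 immunoglobulin genes tested, sorted within each class, with bars for the SE; filled points passed the test. Heavy and kappa variable genes span from near or below 0 to above 2, and none of the points below 0 passed.

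Plasma cells are the antibody-secreting cells, and their secretory machinery was among the genes that rose. Of 14 markers tested 6 rose, 0 fell, and the median was 0.46. With array medians aligned 3 rose and the median was 0.52. 2010001M09Rik, now named Mzb1, a chaperone of antibody assembly, ranged from 9.46 to 10.88 with a median of 10.50 in A and from 10.65 to 12.10 with a median of 11.49 in O, and was 1.98-fold higher (adjusted p = 0.00493). Txndc5, a protein disulfide isomerase, rose by 0.77 ± 0.16, Derl3, which takes part in degrading misfolded proteins, by 0.82 ± 0.18, and Ssr4, a part of the translocon, by 0.50 ± 0.11 (adjusted p = 0.00339, 0.00601 and 0.00489). Tnfrsf17, the receptor BCMA that sustains plasma cells, rose by 0.64 and Creld2 by 0.63. Derl3 was above background on 3 of 9 A and 8 of 9 O arrays, and Tnfrsf17 on 2 and 6. Sdc1, the surface marker CD138, differed by 0.07 and the J chain gene Igj by -0.10, neither passed, and both were above background on at most 3 arrays of a group. The mean level over the list lay between 7.46 and 7.73 in A and between 7.73 and 8.43 in O.

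Of 15 B cell identity markers 2 rose, the inhibitory coreceptors Cd72 (1.24 ± 0.27, adjusted p = 0.00428) and Cd22 (0.88 ± 0.26, adjusted p = 0.0471), and the median was 0.43. Without O array 7 the Cd22 value was 0.83 with an adjusted p of 0.0974, and another of its probes differed by -0.03. Age-associated B cells are a T-bet-driven subset that grows in old mice, and 4 of 7 of their genes rose (median 0.74). Zbtb32, a zinc finger repressor of memory B and plasma cell programs, lay between 5.29 and 7.05 with a median of 6.24 in A and between 7.41 and 9.33 with a median of 8.26 in O. The groups did not overlap and the level was 4.05-fold higher (log2 difference 2.02 ± 0.25, adjusted p = 1.53e-06), while a second, dimmer Zbtb32 probe differed by 0.27. Fas, a death receptor, rose by 0.79, and Fcrl5, an Fc receptor-like molecule above background on 5 of 9 A arrays, by 0.62, whereas Tbx21, the gene of T-bet, differed by 0.74 without passing (adjusted p = 0.0558). The fourth gene that rose is Cxcr3, and both Cxcr3 and Tbx21 are also counted among the effector T cell genes below. The listed genes Itgax, Itgam and Tnfrsf13b are not among those that passed, and differences in the list went down to -0.20.

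T cell genes were counted by state. Of 13 pan-T cell markers 2 rose, Cd2 (0.95 ± 0.22, adjusted p = 0.00783) and Cd6 (0.88 ± 0.23, adjusted p = 0.023), and the median was 0.60, although another Cd6 probe differed by -0.11 and Cd6 did not pass without O array 7 (adjusted p = 0.0547). Cd3e, part of the T cell receptor complex, went from 7.97 to 9.30 in A and from 8.61 to 10.15 in O and did not pass (0.74, adjusted p = 0.0796). None of the 9 naive T cell genes passed, and their median was 0.09. Genes of effector, memory and exhausted T cells rose in 11 of 23 cases, 0 fell, and the median was 0.65.

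Ccl5, the chemokine RANTES that memory T cells and NK cells store, ranged from 7.72 to 9.32 with a median of 8.70 in A and from 9.91 to 11.95 with a median of 10.94 in O. Its level was 5.07-fold higher in old spleens (log2 difference 2.34 ± 0.29, adjusted p = 1.53e-06), with no overlap between groups. Ccl4, an inflammatory chemokine, ranged from 6.42 to 7.57 with a median of 7.38 in A and from 7.97 to 11.41 with a median of 8.76 in O. It was 3.71-fold higher, again without overlap (adjusted p = 0.000158), and a second probe differed by 1.03. Cxcr3, the receptor that draws T helper 1 cells to interferon-induced chemokines, lay between 5.83 and 6.95 with a median of 6.46 in A and between 7.18 and 8.93 with a median of 7.73 in O, and was 2.69-fold higher (adjusted p = 0.000352). The groups did not overlap for Cxcr3 either.

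Inhibitory receptors were among the genes that rose. Lag3, which binds MHC class II, ranged from 6.29 to 7.30 with a median of 6.72 in A and from 7.40 to 8.97 with a median of 7.76 in O, a 2.36-fold difference with no overlap (adjusted p = 0.00016). Ctla4, the CD28 competitor, ranged from 5.56 to 6.21 with a median of 5.75 in A and from 6.19 to 8.14 with a median of 6.76 in O. It was 2.06-fold higher (adjusted p = 0.00135), with 8 of 9 O arrays above the highest A array. Havcr2, the receptor TIM-3, rose by 0.50, and Tox, the transcription factor of exhausted T cells, by 1.04, whereas Pdcd1, the receptor PD-1, was above background on 0 A and 2 O arrays and did not pass (adjusted p = 0.767). Granzyme Gzmk, typical of aged CD8 T cells, rose by 1.13 ± 0.24 and Eomes, a T-box factor, by 0.71 ± 0.20, while Prf1, perforin, differed by -0.11 (adjusted p = 0.842). Gzmk was above background on 2 of 9 A and 7 of 9 O arrays, and Eomes on 1 and 6. The Eomes call was lost without O array 7 (0.64, adjusted p = 0.0907).

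Among 7 regulatory T cell genes, Ctla4 and Tnfrsf4, the costimulatory receptor OX40, rose (Tnfrsf4 by 0.89 ± 0.19, adjusted p = 0.00328), and Foxp3, the lineage factor, differed by -0.13. Of 9 NK cell genes Eomes alone passed and the median was 0.29, with Klrb1c, the antigen NK1.1, at 0.29 (adjusted p = 0.446). O array 7 had the highest list mean for both the effector T cell list (8.00, against 6.92 to 7.38 on the other O arrays) and the age-associated B cell list (7.94, against 7.00 to 7.56). Without that array 10 of 23 effector genes and 4 of 7 age-associated B cell genes passed the test. With array medians aligned 9 of 23 and 2 of 7 passed.

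**Figure D3:**
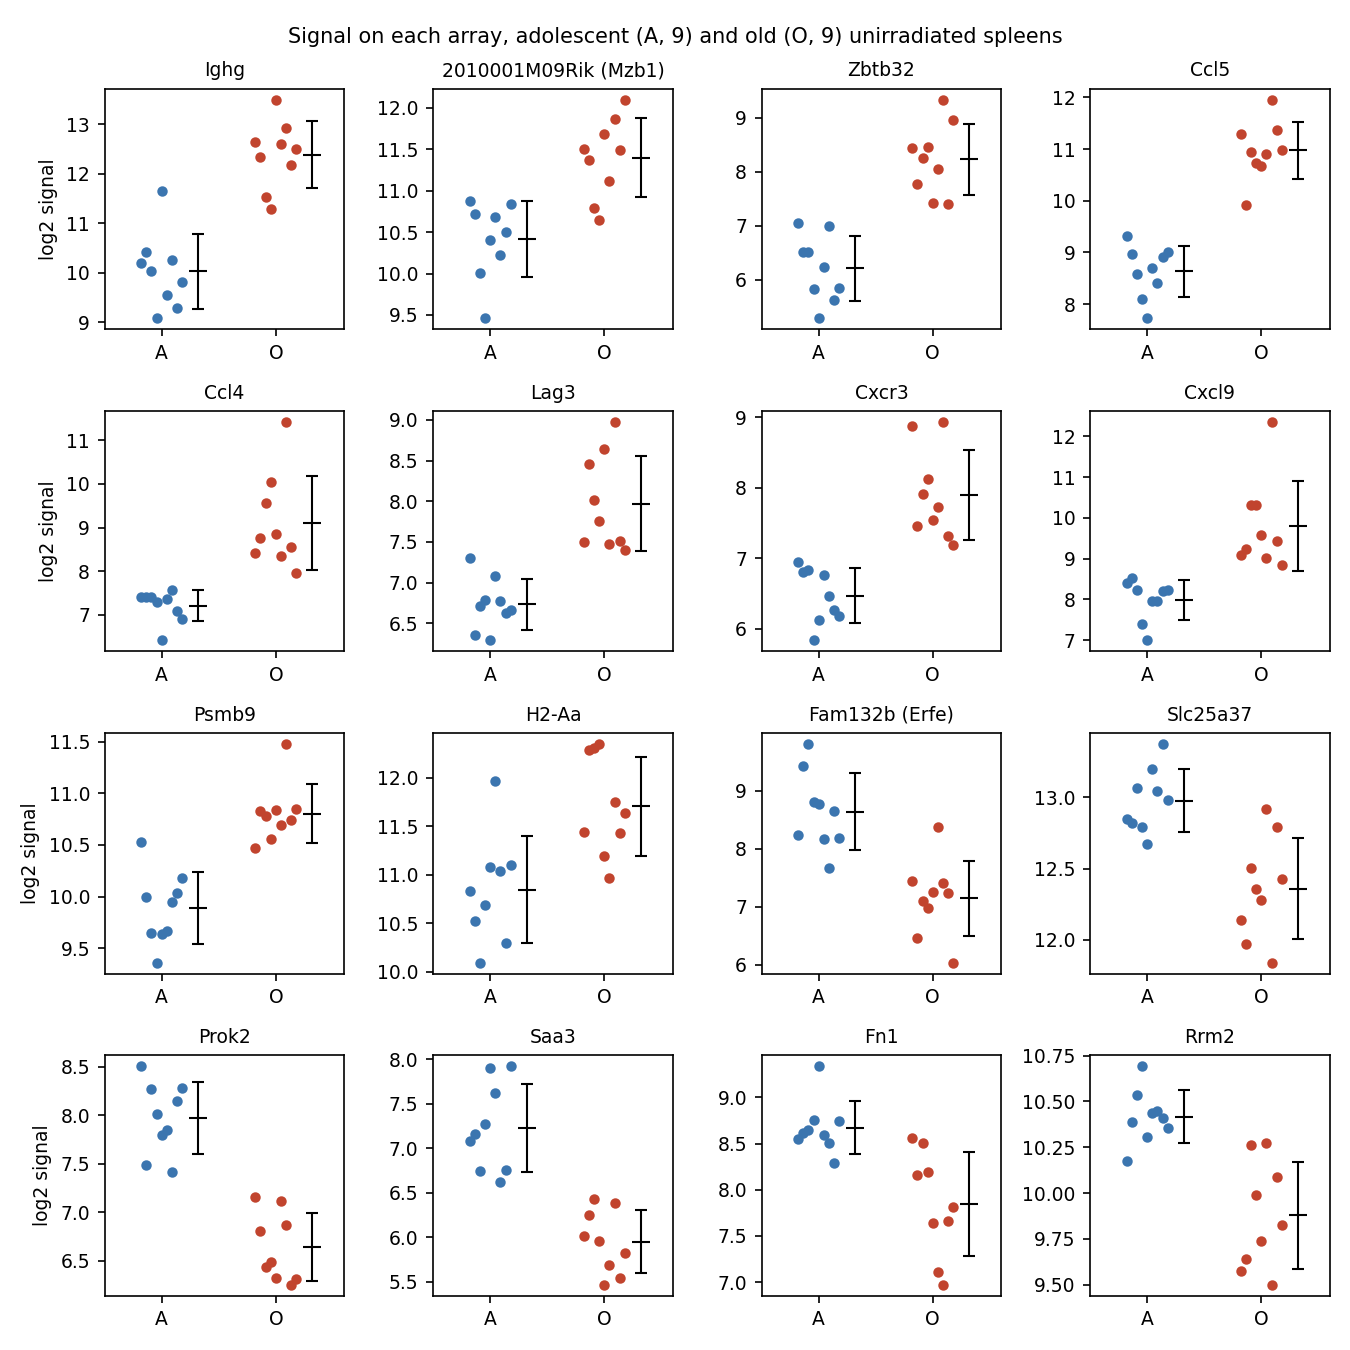
Log2 signal on every A and O array for 16 genes, with the mean and SD beside each group. The groups are fully apart for Zbtb32, Ccl5, Ccl4, Lag3, Cxcr3, Cxcl9, Prok2 and Saa3 and overlap for the other 8 genes, and 1 old array is far above the rest for Ccl4 and Cxcl9.

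Chemokine ligands guide leukocytes within the spleen, and 9 of 20 tested rose while 0 fell (median 0.38). Cxcl9, an interferon gamma-induced ligand of Cxcr3, ranged from 6.99 to 8.52 with a median of 8.19 in A and from 8.84 to 12.35 with a median of 9.44 in O. It was 3.51-fold higher with no overlap (adjusted p = 0.000242), and its log2 difference was 1.81 with all arrays and 1.49 without O array 7. Cxcl10, another ligand of Cxcr3, ranged from 5.50 to 6.28 with a median of 5.97 in A and from 6.28 to 7.84 with a median of 6.68 in O, a 1.95-fold difference (adjusted p = 0.00146) in which the groups met at 6.28 without overlapping. Xcl1, which attracts cross-presenting dendritic cells, was 1.89-fold higher with no overlap (adjusted p = 8.56e-05). Ccl3 rose by 0.83, the transmembrane ligands Cx3cl1 by 0.63 and Cxcl16 by 0.68, and the T zone chemokine Ccl19 by 0.81. Ccl3 was above background on 4 of 9 A and 8 of 9 O arrays, and Cx3cl1 on 1 and 8. Cxcl13, which organises B cell follicles, differed by -0.02, and Cxcl12 by 0.08. Of 11 chemokine receptors 2 rose, Cxcr3 among them (median 0.14), and 2 of 23 cytokines rose. Tnfsf13b, the B cell survival factor BAFF, rose by 0.59 ± 0.17, and Il21, a helper cytokine for B cells, passed the test (adjusted p = 0.00153) with 0 A and 4 O arrays above background, so no size is given. Ifng itself was above background on 0 A and 5 O arrays and did not pass (adjusted p = 0.0532), and Tgfb1 differed by 0.09 (adjusted p = 0.81).

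Of 27 genes induced by interferon 8 rose, 0 fell, and the median was 0.34. Among interferon-induced GTPases, Igtp rose by 0.74 ± 0.14 (adjusted p = 0.000842), Gbp2 by 0.91 ± 0.21 (adjusted p = 0.00834) and Gbp3 by 0.69 ± 0.18 (adjusted p = 0.0196), while Irgm1 differed by -0.16 (adjusted p = 0.645). Ly6a, the stem cell antigen Sca-1, ranged from 10.48 to 11.96 with a median of 11.16 in A and from 11.84 to 13.11 with a median of 12.43 in O, and was 2.15-fold higher (adjusted p = 0.0011). Ifit3, an antiviral protein, rose by 0.91 (adjusted p = 0.0465). Irf7 differed by 0.17, Usp18 by 0.16, Oas2 by 0.13 and Rsad2 by -0.34, and none of them passed.

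Of 17 genes of MHC class I and its immunoproteasome 9 rose, 0 fell, and all 17 differences were above 0 (median 0.62). Psmb9, a catalytic subunit of the immunoproteasome, ranged from 9.36 to 10.52 with a median of 9.94 in A and from 10.47 to 11.48 with a median of 10.78 in O. It was 1.89-fold higher (adjusted p = 0.00226), with 8 of 9 O arrays above the highest A array. Its partner Psmb8 rose by 0.79 ± 0.17, the classical heavy chain H2-K1 by 0.94 ± 0.25, and the light chain B2m by 0.48 ± 0.13. The nonclassical genes H2-Q8 and H2-Q6 rose by 1.13 and 0.85, and these gene copies are similar enough that their probes may share RNA. H2-D1 differed by 0.28 (adjusted p = 0.349).

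All 10 MHC class II genes had differences above 0, from 0.55 to 0.86, and 3 of them passed the test. H2-Aa, an alpha chain, ranged from 10.09 to 11.97 with a median of 10.83 in A and from 10.97 to 12.35 with a median of 11.64 in O, and was 1.81-fold higher (adjusted p = 0.0356). H2-Eb1, a beta chain, ranged from 11.60 to 12.99 with a median of 12.23 in A and from 12.54 to 13.21 with a median of 12.99 in O, and was 1.61-fold higher (adjusted p = 0.0247). The groups overlapped for both. H2-DMa, which loads peptides, rose by 0.73 (adjusted p = 0.0483), and none of the 3 passed without O array 7, whose list mean was 11.49 (the other O arrays lay between 10.76 and 11.68). Cd74, the invariant chain, ranged from 12.12 to 13.86 in A and from 13.21 to 14.46 in O and did not pass (0.60, adjusted p = 0.0958).

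**Figure D4:**
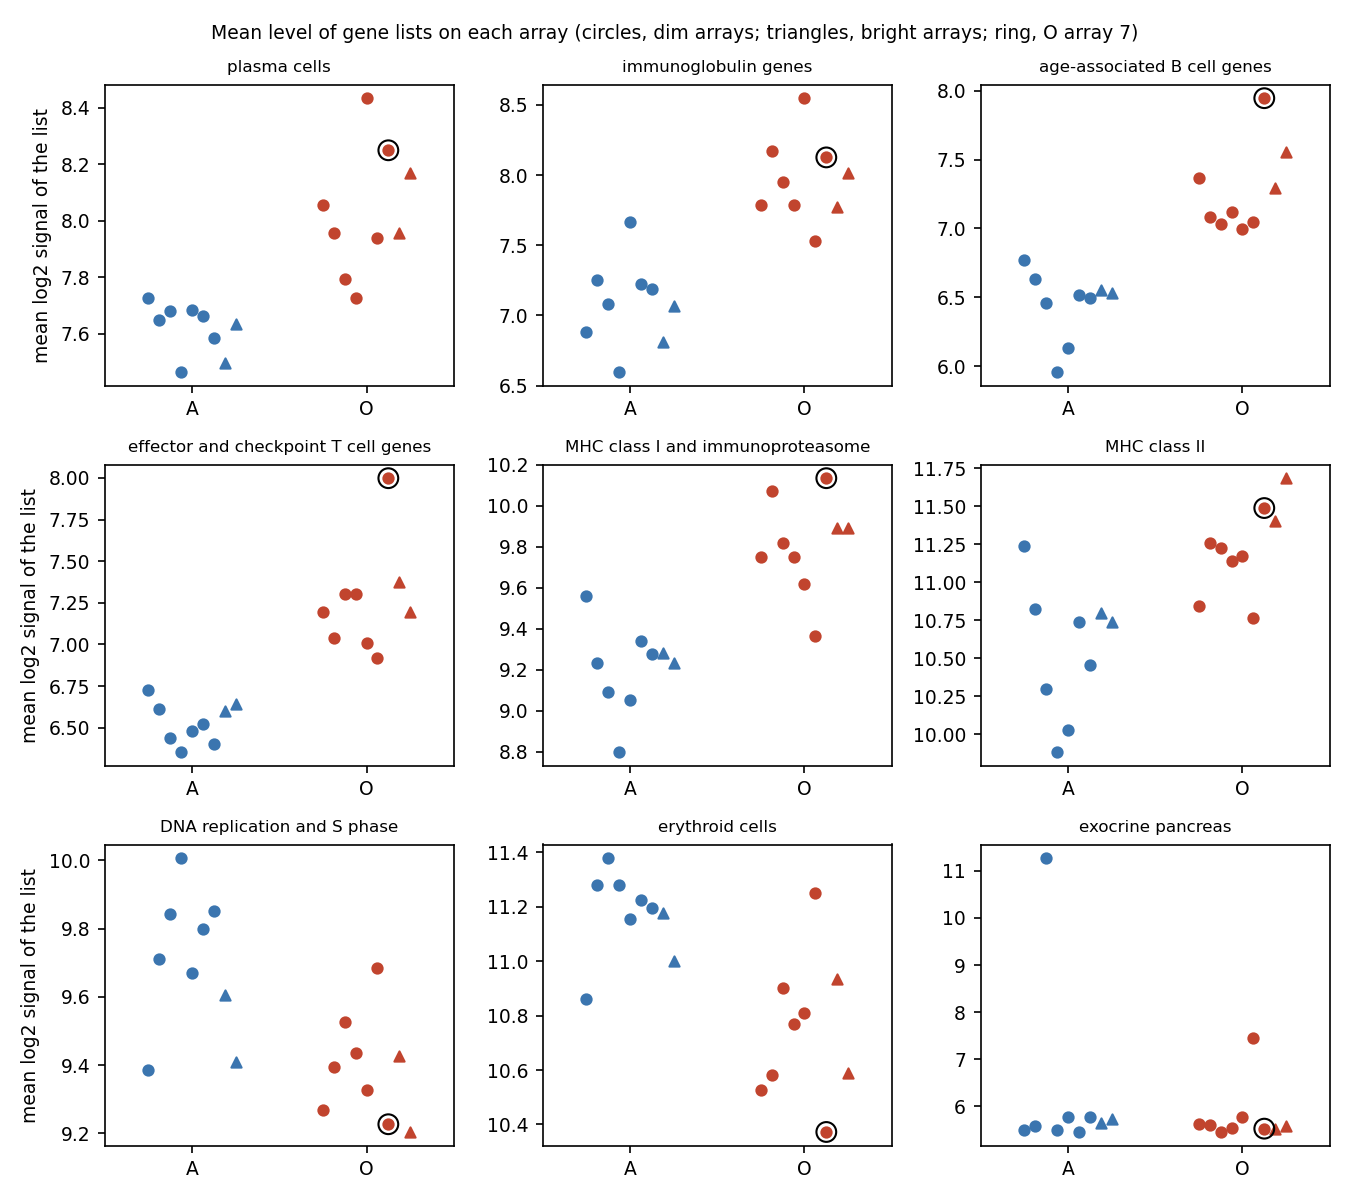
Mean log2 signal over the tested members of 9 gene lists on each A and O array; circles are dim arrays, triangles bright arrays, and the ring marks O array 7. Effector T cell, age-associated B cell and, narrowly, plasma cell lists are fully apart between ages, the immunoglobulin, MHC, S phase and erythroid lists overlap, and the pancreas list is raised on 1 A and 1 O array.

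Promoter windows of some of these genes were read because the genes share well-known upstream elements. RefSeq windows (GRCm38.p6, the 250 bases before the annotated start) were at hand for 18 of the 27 interferon-stimulated genes, 7 of the 10 MHC class II genes and 14 of the 17 MHC class I genes. The interferon-stimulated response element, searched on both strands as GAAA, any pair of bases, then GAAA, stood in 11 of those 18 windows, in 2.98% of all 32851 promoter windows and in 3.43% of the 8428 windows of tested genes. It stood in 5 of 6 such genes that rose and in 6 of 12 that did not pass. The Y box of MHC promoters, searched as CTGATTGG on both strands, stood in 3 of 7 MHC class II genes and in 6 of 14 MHC class I genes. Among class I genes it stood in 3 of 7 that rose and in 3 of 7 that did not pass. Among class II genes it stood in 2 of 3 that rose and in 1 of 4 that did not pass. It stood in 3.83% of all windows and in 5.78% of the tested genes with a window. The X2 box, searched as TGACGTCA, stood in the H2-Aa window, in 1.55% of all windows and in 2.79% of the tested genes with a window. A kappaB motif, GGGA, any base, then TTCC or TTTCC, stood in the Cxcl9, Cxcl10, H2-Aa and B2m windows, and in that of the chemokine Cxcl1, which did not pass. It stood in 1.78% of all windows and in 2.74% of the tested genes with a window. Such matches are letters in a window, and binding was not measured. In the sequences below, written 5′ to 3′ on the strand of the gene, capitals mark the motifs named beside each gene, other matches stay in lower case, and the response element of Gbp2 is read on the opposite strand. H2-Aa lies at chr17:34287824-34288073 (minus strand; X2 and Y boxes), H2-Eb1 at chr17:34305617-34305866 (plus strand; Y box), Gbp2 at chr3:142620413-142620662 (plus strand; response element), Igtp at chr11:58199306-58199555 (plus strand; response element), Cxcl10 at chr5:92348890-92349139 (minus strand; response element and kappaB) and Cxcl9 at chr5:92328080-92328329 (minus strand; kappaB).
H2-Aa: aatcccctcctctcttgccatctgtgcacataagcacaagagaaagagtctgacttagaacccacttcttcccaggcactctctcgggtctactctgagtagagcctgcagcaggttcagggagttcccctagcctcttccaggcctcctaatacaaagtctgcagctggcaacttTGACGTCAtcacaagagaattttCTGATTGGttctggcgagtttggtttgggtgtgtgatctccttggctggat
H2-Eb1: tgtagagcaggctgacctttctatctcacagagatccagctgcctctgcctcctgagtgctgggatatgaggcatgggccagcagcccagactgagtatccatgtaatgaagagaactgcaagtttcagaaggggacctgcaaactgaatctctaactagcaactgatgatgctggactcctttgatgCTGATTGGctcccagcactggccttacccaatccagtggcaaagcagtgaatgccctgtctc
Gbp2: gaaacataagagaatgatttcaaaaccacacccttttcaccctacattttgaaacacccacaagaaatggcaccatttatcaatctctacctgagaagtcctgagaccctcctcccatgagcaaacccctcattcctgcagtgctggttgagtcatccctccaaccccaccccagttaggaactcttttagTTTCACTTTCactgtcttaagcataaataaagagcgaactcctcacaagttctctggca
Igtp: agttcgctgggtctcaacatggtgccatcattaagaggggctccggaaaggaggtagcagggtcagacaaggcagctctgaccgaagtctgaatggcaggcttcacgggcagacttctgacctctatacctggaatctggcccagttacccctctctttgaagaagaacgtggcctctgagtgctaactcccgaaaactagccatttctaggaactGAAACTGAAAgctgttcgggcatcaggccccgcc
Cxcl10: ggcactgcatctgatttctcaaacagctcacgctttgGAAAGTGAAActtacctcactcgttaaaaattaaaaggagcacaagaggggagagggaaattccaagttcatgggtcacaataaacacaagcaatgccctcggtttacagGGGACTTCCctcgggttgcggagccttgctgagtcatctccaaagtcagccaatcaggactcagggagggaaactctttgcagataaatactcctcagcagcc
Cxcl9: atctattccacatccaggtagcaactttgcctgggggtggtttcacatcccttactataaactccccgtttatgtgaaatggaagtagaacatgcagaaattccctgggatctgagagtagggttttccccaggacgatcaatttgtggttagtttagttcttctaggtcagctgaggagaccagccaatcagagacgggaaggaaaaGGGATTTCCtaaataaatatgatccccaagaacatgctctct

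Of 17 macrophage markers 2 rose, the complement subunits C1qa (0.72 ± 0.19, adjusted p = 0.0202) and C1qc (0.83 ± 0.23, adjusted p = 0.0335), while Emr1, now Adgre1, the antigen F4/80, differed by 0.62 without passing (adjusted p = 0.163). Neither C1q call held without O array 7 (adjusted p = 0.061 and 0.0898). Of 13 complement genes 5 rose (median 0.57), against 2 without O array 7, 2 with array medians aligned and 2 to 8 when each array was left out in turn. C4b, the shared component of the classical and lectin pathways, had the largest difference of the 5 and ranged from 8.10 to 9.29 with a median of 8.71 in A and from 9.00 to 10.05 with a median of 9.62 in O. It was 1.86-fold higher (adjusted p = 0.00197), and Serping1, the C1 inhibitor, rose by 0.63, and factor B, Cfb, by 0.76. Of 10 dendritic cell genes Cd83, a maturation marker, passed (0.86, adjusted p = 0.0368; 0.0873 without O array 7), and the median was 0.04.

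Of 8 follicular and reticular stroma genes 3 rose, Ccl19, Tnfsf13b and Tnfsf11 (above background on 1 of 9 A and 6 of 9 O arrays), and none of them passed without O array 7. Of 12 endothelial genes Emcn, a sialomucin of venous and sinusoidal endothelium, was between 4.82 and 6.22 with a median of 5.72 in A and between 5.35 and 7.64 with a median of 7.06 in O, a 2.22-fold difference (adjusted p = 0.0027). The endothelial median was -0.07, and 0.06 with array medians aligned. Of 23 matrix genes, the proteoglycan Bgn rose by 0.59 ± 0.14 (adjusted p = 0.00739) and fibronectin, Fn1, fell. Fn1 ranged from 8.29 to 9.34 with a median of 8.61 in A and from 6.97 to 8.56 with a median of 7.81 in O, and fell by 0.82 on the log2 scale (adjusted p = 0.011), although another of its 3 probes differed by 0.09 and it did not pass with array medians aligned (-0.70, adjusted p = 0.291). None of the 13 megakaryocyte genes passed (median 0.01), and 1 of 9 mast cell and basophil genes did, Fcer1a at 0.45 (adjusted p = 0.039). Fcer1a was above background on 5 of 9 A arrays, and it did not pass without O array 7 (adjusted p = 0.0817), with array medians aligned (0.297) or in 11 of the 18 fits that left out 1 array. No member passed among the 6 adipocyte genes (median 0.18), 3 mesothelium genes (0.18) and 8 exocrine pancreas genes (-0.56 with all arrays, -0.01 without A array 3 and O array 6).

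Of 17 granulocyte genes 0 passed, and the median was -0.25. Of the 17 differences 1 was above 0, with Il8rb, now Cxcr2, lowest at -0.92 (adjusted p = 0.0816). The list mean ranged from 10.50 to 11.68 in A and from 10.10 to 10.97 in O. Prok2, a prokineticin made by neutrophils, is not on the list and was among the 15 largest decreases. It lay between 7.41 and 8.50 with a median of 8.01 in A and between 6.25 and 7.16 with a median of 6.49 in O, 2.52-fold lower in old spleens without overlap (adjusted p = 0.00101). Saa3, an acute phase serum amyloid, lay between 6.62 and 7.92 with a median of 7.15 in A and between 5.47 and 6.43 with a median of 5.96 in O, and was 2.43-fold lower, again without overlap (adjusted p = 0.000248). Asprv1, a retroviral-like protease, fell by 1.05 (adjusted p = 0.00535; 0.208 with array medians aligned), and A830030H10Rik, from 5.84 to 8.78 in A and from 4.67 to 7.01 in O, fell by 1.54 (adjusted p = 0.00172).

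Of 28 erythroid genes 2 fell, 0 rose, and 27 differences were below 0 (median -0.45). Fam132b, now Erfe, is the hormone erythroferrone, which erythroblasts secrete to lower hepcidin. It ranged from 7.68 to 9.80 with a median of 8.65 in A and from 6.04 to 8.37 with a median of 7.25 in O, and fell by 1.49 on the log2 scale (2.81-fold, adjusted p = 0.0066), with 8 of 9 O arrays below the lowest A array. Slc25a37, mitoferrin, which brings iron to mitochondria for heme, ranged from 12.67 to 13.37 with a median of 12.98 in A and from 11.84 to 12.92 with a median of 12.36 in O, and fell by 0.62 (adjusted p = 0.00967). With array medians aligned Slc25a37 differed by -0.54 and did not pass (adjusted p = 0.536). The globin genes Hba-a1 and Hbb-b1 sat near the top of the scale and differed by -0.03 and -0.04.

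None of the 8 heme synthesis genes passed, and all 8 were below 0 (median -0.40). Of 13 iron genes, Fam132b and Slc25a37 fell and Cp, the ferroxidase ceruloplasmin, rose by 0.69 (adjusted p = 0.0196; 0.0571 without O array 7), while Slc40a1, the exporter ferroportin, differed by 0.30. Tfrc, the transferrin receptor of erythroblasts, differed by -0.52 (adjusted p = 0.158).

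Proliferation was read from genes of S phase and of mitosis. All 32 DNA replication and S phase genes had differences below 0, with a median of -0.30, and 1 passed. Rrm2, the regulated subunit of ribonucleotide reductase, ranged from 10.17 to 10.69 with a median of 10.41 in A and from 9.50 to 10.27 with a median of 9.83 in O, and fell by 0.54 (adjusted p = 0.0481). That call was lost without O array 7 (adjusted p = 0.105) and with array medians aligned (adjusted p = 0.72). Of 28 genes of G2 and M phase 0 passed and 26 were below 0 (median -0.33). With array medians aligned the medians of the lists were -0.19 and -0.22, beside 0.05 over all genes. Mcm7, a subunit of the replicative helicase, differed by -0.27, Cdk2, the S phase kinase, by -0.16 and Ruvbl2, an AAA ATPase, by -0.15, and none of them passed.

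Of 65 ribosomal protein genes 0 passed (median 0.00), and of 74 respiratory chain genes 0 passed (median -0.03). Of 12 genes tied to cellular senescence, Igfbp3, an insulin-like growth factor binding protein, rose by 0.65 ± 0.13 (adjusted p = 0.00135). Cdkn2a, the gene of p16, was dim and differed by -0.23 (adjusted p = 0.237), and Cdkn1a, the gene of p21, by 0.12. Of 6 genes known to differ between C57BL/6 substrains Entpd4 rose by 0.54 (adjusted p = 0.00462), although its other probes reached -0.08, and Nnt, disrupted in the Jackson substrain, differed by 0.21 (adjusted p = 0.443). Of 11 genes that the study followed, Ly6a alone passed the test, and Il2ra differed by 0.15 (adjusted p = 0.731).

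Some called genes fall outside the lists and the rule and were picked after their values were seen. Gzmm, granzyme M, ranged from 5.67 to 6.99 in A and from 6.85 to 10.46 in O and rose by 1.89 ± 0.41 (adjusted p = 0.00462). Ubd, the ubiquitin-like FAT10 that interferon gamma induces, ranged from 6.22 to 7.06 in A and from 7.43 to 9.66 in O, and rose by 1.75 ± 0.22 (adjusted p = 2.31e-06). Csprs and C130026I21Rik, members of 1 multicopy family, rose by 1.86 and 2.24 without overlap, and their probes may share RNA. Cdc7, the kinase that fires replication origins, ranged from 9.79 to 10.26 in A and from 9.24 to 9.76 in O, and fell by 0.48 without overlap (adjusted p = 0.00427).

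The same ages were compared after irradiation in the 20 AP and OP arrays, which share no animal with the 18. There 2670 genes were higher (15.6% of those tested) and 2864 lower (16.7%) in old spleens. Of the 453 genes higher in O, 370 were also higher in OP (81.7%), and of the 127 lower in O, 77 were also lower in OP (60.6%), while 2 of the 127 were higher in OP. Ccl5 differed by 2.34 in O vs A and by 2.54 in OP vs AP, Zbtb32 by 2.02 and 1.58, Ighg by 2.36 and 2.53, and Lag3 by 1.24 and 0.91. Fam132b differed by -1.49 and -2.87, and Prok2 by -1.33 and -1.47.

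Several lists with few calls in unirradiated spleens had more in the irradiated ones, where more genes were called in general. Of all genes tested, 15.6% were higher and 16.7% lower in OP, against 2.64% and 0.741% in O. Of 32 S phase genes 31 were lower in OP (median -0.83), and of 28 erythroid genes 25 were lower (median -0.88). Of 13 T cell markers 12 were higher (median 1.33), and all 10 MHC class II genes were higher (median 1.23). In other lists the median was smaller after irradiation. Their call counts are to be read against those shares, so the counts in O and in OP cannot be compared directly. Of 27 interferon-induced genes 8 were higher and 4 lower in OP, against 8 and 0 in O. Their median was -0.01, against 0.34 in O vs A. Of 13 complement genes 6 were higher in OP (median 0.28), against 5 in O (0.57). Of 17 macrophage markers 3 were higher in OP (median 0.17), against 2 in O (0.35). The difference itself was tested as an interaction over all genes, which 106 genes passed (0.618%), and 7 of these were among the 580. Of the named genes Fcer1a passed it, since it was 0.45 higher in O than in A and differed by -0.25 between OP and AP (interaction -0.70, adjusted p = 0.0491). No member of the S phase, erythroid, T cell, MHC class II, interferon, complement or macrophage lists passed the interaction test. All AP and OP arrays were bright while most A and O arrays were dim. With brightness as a term in the fit, 219 genes passed the interaction test, against 106 without it. Brightness was balanced between the ages in each pair, so this term left the age differences unchanged (Ccl5 2.34 in both fits). It changed only the estimated spread, and a part of array brightness in the interaction was not tested.

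**Figure D5:**
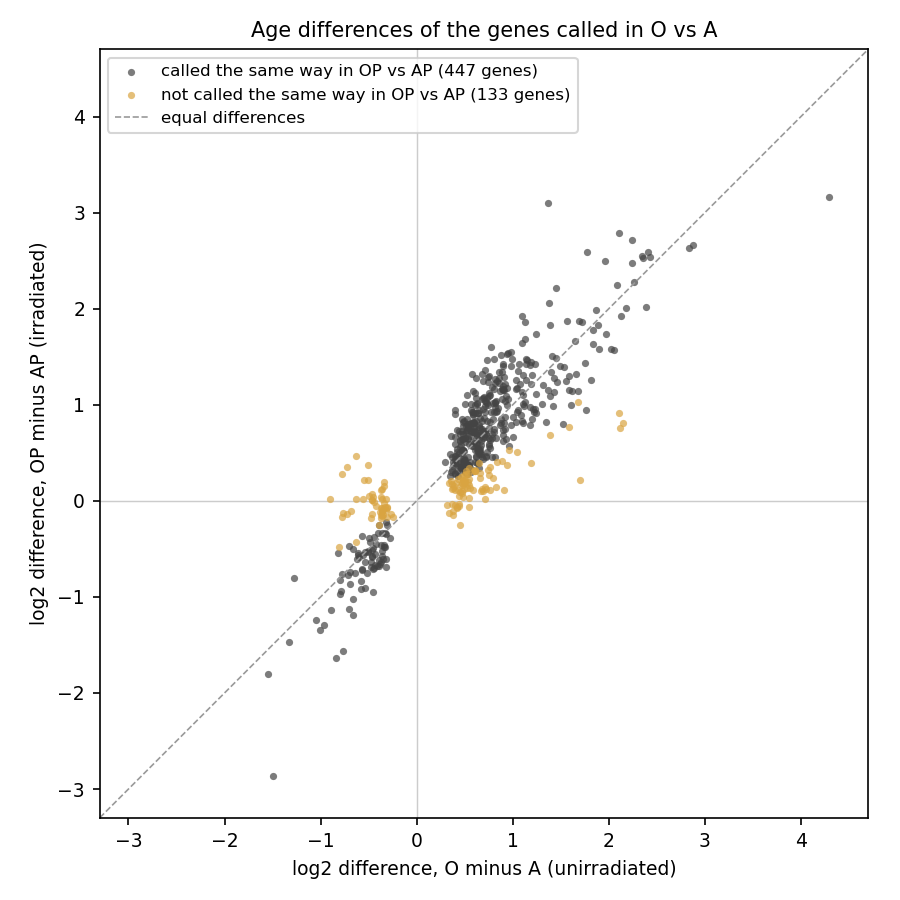
Log2 age difference of each of the 580 genes called in O vs A, in unirradiated spleens (horizontal axis) and in irradiated spleens (vertical axis); the dashed line marks equal differences. The 447 genes called in the same direction in both lie in the upper right and lower left, and the others were not called in the same direction after irradiation.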

How the data were processed

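The authors deposited 1 table of average bead signal (intensity) per probe from Illumina Mouse WG-6 arrays, neither background-subtracted nor normalized. Columns were matched to groups by their names (0 unmatched), and no pair of arrays held identical values. Over all 38 arrays, signals were background-corrected (normexp, offset 16), normalized between arrays by quantiles and logged to base 2 (log2) with limma 3.58.1 in R 4.3.3. A probe was kept if above background (peak of the signals plus 1.645 SD) on at least 9 arrays, which left 23909 of 45281 probes. Each of the 17145 genes was represented by 1 probe, and 4689 had more than 1. O vs A was tested with limma's moderated test in 1 fit of the 4 groups (34 residual degrees of freedom), adjusted by Benjamini-Hochberg over all genes, at 0.05. Each array is 1 spleen, and the number of arrays limits the precision. Tables and figures were made with Python 3.11.15 and matplotlib 3.10.9. The fit was tested on simulated data.

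The genes named were the 15 largest increases and decreases, up to 4 members per list with the lowest adjusted p, list members where their list is described, and the genes the study followed. The groups, lists and rules were chosen with earlier results of these data known. Alternatives covered background, normalization, probe filters, probes per gene, array weights, brightness, the samples fitted and the methods' t-test. Some list members were counted with their lists and are not reported here by name.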

Additional observations from a re-analysis of the deposited data

Results flagged for a closer look

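A single array stood far from the others of its group for 14 of the 90 named genes. Chance gives about 1 in 20 groups such an array, so some are expected among the age groups of 90 genes. O array 7 was the highest old array for Tnfrsf4 (9.34), Fas (8.97), Psmb9 (11.48), Cxcl9 (12.35) and Il21 (6.20), on the log2 scale. O array 6 was the highest for Bex4 (10.08). Among adolescent spleens the highest array stood apart for LOC641178 (6.50, A array 7), Fbln2 (9.50, A array 9), Pdia2 (10.60, A array 3, which also held the pancreas genes), Fn1 (9.34, A array 5), Eomes (5.44, A array 8) and Serping1 (10.58, A array 9). The lowest adolescent array, A array 5, stood apart for 9830141J12Rik (5.38) and Cd83 (7.26).

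For Fcer1a the age difference in irradiated spleens differed from that in unirradiated ones by -0.70 on the log2 scale (interaction test in limma, adjusted p = 0.0491).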

How the results depend on the processing

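With array medians aligned, 213 genes passed (205 higher, 8 lower), 74.6% of them in the same direction in OP vs AP, with 21 interactions and 62 list members. Without a filter on dim probes 59 interactions passed, with array quality weights 73 genes were lower, and with brightness as a term 219 interactions passed. The A and O arrays fitted alone gave 378 genes (301 higher, 77 lower). Dim arrays alone gave 257 (219 higher, 38 lower) with 66 list members, and bright arrays alone, 2 of each age, gave 23 (22 higher, 1 lower) with 10 list members. The methods' t-test after Benjamini-Hochberg gave 237 (183 higher, 54 lower) with 55 list members. Leaving out 1 array at a time gave 417 to 781 genes, 339 to 566 higher, 76 to 215 lower and 83 to 131 list members. The lower count was 215 without O array 6, 76 without O array 2, 78 without O array 7 and 84 without A array 3. Klrb1c, which did not pass, differed by -0.035 with bright arrays alone. Leaving out the 2 arrays with pancreas genes, chosen after seeing the data, gave 508 genes. Of the 80 named genes that passed, 59 passed in every fit that left out 1 array. The causes of these changes were not tested. No paired analysis was possible because the columns carry no replicate numbers of the labels.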
